A study of Mus musculus with 35 samples.

Results

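Smooth muscle contractile genes were followed in RNA-seq libraries of sorted pancreatic ductal adenocarcinoma (PDAC) cells from mice. The group held the 8 genes *Acta2*, *Actg2*, *Tagln*, *Cnn1*, *Myl9*, *Myh11*, *Tpm1* and *Tpm2*, chosen by symbol among the 53465 genes of the deposited count table, and each symbol belonged to 1 gene identifier. The cells were KC-shSmad4 lines, which carry a doxycycline-inducible short hairpin RNA against *Smad4*, made specific to the pancreas by *Ptf1a*-driven Cre, and they were grown in nude mice as orthotopic pancreatic tumors, as liver metastases after injection into the spleen or as lung metastases after injection into the tail vein. Mice were kept on doxycycline (labelled Smad4OFF) or taken off it (labelled Smad4ON), and tumor cells positive for the mKate2 reporter were sorted 7 or 14 days later. The 35 libraries fell into 12 groups. On day 7 there were 3 pancreas libraries labelled off and 2 labelled on, 2 liver libraries labelled off and 3 labelled on, and 4 lung libraries labelled off and 2 labelled on. On day 14 the pancreas had 2 labelled off and 3 labelled on, the liver 3 of each and the lungs 4 of each. All hosts received doxycycline chow before transplantation and nude mice lack a normal T cell compartment, the liver assay included removal of the spleen, and the labels do not say which of the KC-shSmad4 lines gave each library.

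Smooth muscle cells and myofibroblasts contract when myosin pulls on actin filaments. Alpha and gamma smooth muscle actin (*Acta2*, *Actg2*) form these filaments, the smooth muscle myosin heavy chain (*Myh11*) and a regulatory light chain (*Myl9*) form the motor, tropomyosins (*Tpm1*, *Tpm2*) lie along the filament, and calponin (*Cnn1*) and transgelin (*Tagln*) bind actin. Serum response factor (SRF) and its myocardin family cofactors switch many of these genes on through a DNA element called the CArG box, and TGFβ signaling through SMAD proteins is a classic inducer of several of them in fibroblasts. *Acta2*, *Tagln* and *Myl9* are widely used marks of cancer-associated myofibroblasts, *Myh11* and *Cnn1* mark mature smooth muscle more strictly, and *Tpm1*, *Tpm2* and *Myl9* are also made by many cells that are not muscle.

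In the files' GRCm38 annotation, *Acta2* (ENSMUSG00000035783) lies on chromosome 19 from 34241090 to 34255336 and *Actg2* (ENSMUSG00000059430) on chromosome 6 from 83512905 to 83536265, both on the minus strand. *Tagln* (ENSMUSG00000032085) spans 45929619 to 45936058 on the minus strand of chromosome 9, *Cnn1* (ENSMUSG00000001349) spans 22099216 to 22109630 on its plus strand, and *Tpm1* (ENSMUSG00000032366) spans 67022590 to 67049406 on its minus strand. *Myl9* (ENSMUSG00000067818) is at 156775420 to 156781658 on the plus strand of chromosome 2, *Myh11* (ENSMUSG00000018830) at 14194527 to 14291408 on the minus strand of chromosome 16, and *Tpm2* (ENSMUSG00000028464) at 43514711 to 43523765 on the minus strand of chromosome 4. Counts were made per gene, so isoforms were not told apart.

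The RefSeq promoter table (GRCm38.p6, 250 bases before to 50 after the transcription start) held 5 of the 8 genes, *Acta2*, *Cnn1*, *Myl9*, *Tpm1* and *Tpm2*. The promoters of *Acta2* and *Myl9*, whose levels followed each other over the libraries, and of *Tpm1*, whose pattern differed, are shown 5′ to 3′ on the gene's strand. Capitals mark matches on either strand to the strict CArG box (by name), to CAGAC, a short SMAD site, or to CATTCC, the MCAT element bound by TEAD factors, and no 2 matches overlap.
Acta2, chr19:34255324-34255623, minus strand: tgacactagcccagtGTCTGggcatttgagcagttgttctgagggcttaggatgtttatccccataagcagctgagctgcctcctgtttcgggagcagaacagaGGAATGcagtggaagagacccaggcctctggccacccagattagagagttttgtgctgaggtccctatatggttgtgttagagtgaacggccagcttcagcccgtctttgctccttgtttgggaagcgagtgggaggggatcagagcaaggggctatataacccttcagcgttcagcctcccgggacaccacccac
Myl9, chr2:156775214-156775513, plus strand: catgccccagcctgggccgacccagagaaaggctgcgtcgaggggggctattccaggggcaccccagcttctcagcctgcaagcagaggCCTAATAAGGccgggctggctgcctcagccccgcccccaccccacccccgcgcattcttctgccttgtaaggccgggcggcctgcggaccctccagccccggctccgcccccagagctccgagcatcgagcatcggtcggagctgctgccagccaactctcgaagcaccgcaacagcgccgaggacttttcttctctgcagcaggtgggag
Tpm1, chr9:67049164-67049463, minus strand: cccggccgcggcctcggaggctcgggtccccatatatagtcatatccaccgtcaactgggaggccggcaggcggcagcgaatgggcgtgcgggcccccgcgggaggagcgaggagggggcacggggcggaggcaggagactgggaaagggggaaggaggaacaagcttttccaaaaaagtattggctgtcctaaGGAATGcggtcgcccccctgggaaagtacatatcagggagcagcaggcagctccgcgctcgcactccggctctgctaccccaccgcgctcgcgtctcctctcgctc
The strict CArG box stood once, in *Myl9*, against 1.63% of all 32851 promoters of the table. Variants that deviate from the strict form were not searched, so its absence from the other windows does not mean that they lack an SRF site. CATTCC or its reverse complement stood in *Acta2* and *Tpm1*, against 14.7% of all promoters, and CAGAC in *Acta2* and *Cnn1*, against 49.6%. The *Tpm2* window held none of the 3 motifs, which says only that these letters were not in it.

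Before the levels are read, 4 measurements bear on them. *Smad4* mRNA went against the labels: it was 68.3 to 147 CPM (normalized read counts at a common library size) in the 18 libraries labelled off and 14.7 to 22.3 CPM in the 17 labelled on, so every label fold change below is libraries labelled on over libraries labelled off, and a negative value is a lower level in the libraries with less *Smad4* mRNA. Of these libraries, 1 of the 2 liver libraries labelled off on day 7 was sequenced paired-end and stood apart: its summed level of 12 fibroblast genes was 36699 CPM against 368 to 1495 CPM in the other 4 liver libraries of that day, and its 8 epithelial carcinoma genes summed to 4119 CPM against 13014 to 18203 CPM. The sorted pancreatic cells carried fibroblast genes throughout, with sums of 9199 to 25559 CPM against 181 to 4454 CPM in the 24 liver and lung libraries other than the paired-end one, and all 12 fibroblast genes were above 0 counts in every library. Of the liver and lung libraries, 10 held counts on the mitochondrial gene *mt-Co3* and the other 25 libraries of the series did not. Library totals were 11885461 to 43571007 counts, which put 3 counts at 0.0709 to 0.232 CPM after normalization.

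The counts of *Tagln* are less certain than those of the other members. Of its 1988 exonic bases in GENCODE M21, 67.9% also lie in exons of genes on the opposite strand, 62.4% in *Gm48529* and 5.43% in *Pcsk7*, and none of the other 7 members shares an exonic base with another gene. The kit keeps the strand, but the strand setting of the counting is not given in the sources used here, so *Tagln* counts, 2056 over all 35 libraries, are uncertain, and the part of the overlap in them was not tested. *Acta2* and *Actg2* are near-identical proteins, yet none of the 75-base words in their transcripts occurs in a transcript of any other gene in that annotation.

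Per kilobase of gene model, *Acta2* and *Tpm1* were the most abundant members, and *Cnn1* and *Myh11* were the least abundant. In the pancreas the median over 10 libraries was 450.3 CPM per kilobase for *Acta2*, 186 for *Tpm1*, 71.8 for *Myl9*, 30.1 for *Tpm2*, 5.81 for *Actg2*, 3.47 for *Tagln*, 0.455 for *Cnn1* and 0.222 for *Myh11*. In the 10 liver libraries other than the paired-end one the order differed, with *Tpm1* first at 74.7 CPM per kilobase, then *Acta2* at 32.0, *Tpm2* at 23.4 and *Myl9* at 4.92. In the 14 lung libraries *Tpm1* was at 82.7, *Acta2* at 23.6, *Tpm2* at 12.9 and *Myl9* at 2.07 CPM per kilobase. The remaining members were below 0.5 CPM per kilobase at the median in both metastatic organs. Under 10 counts were found for *Actg2* in 9, *Tagln* in 9, *Cnn1* in 10 and *Myh11* in 3 of the 35 libraries.

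**Figure D1:**
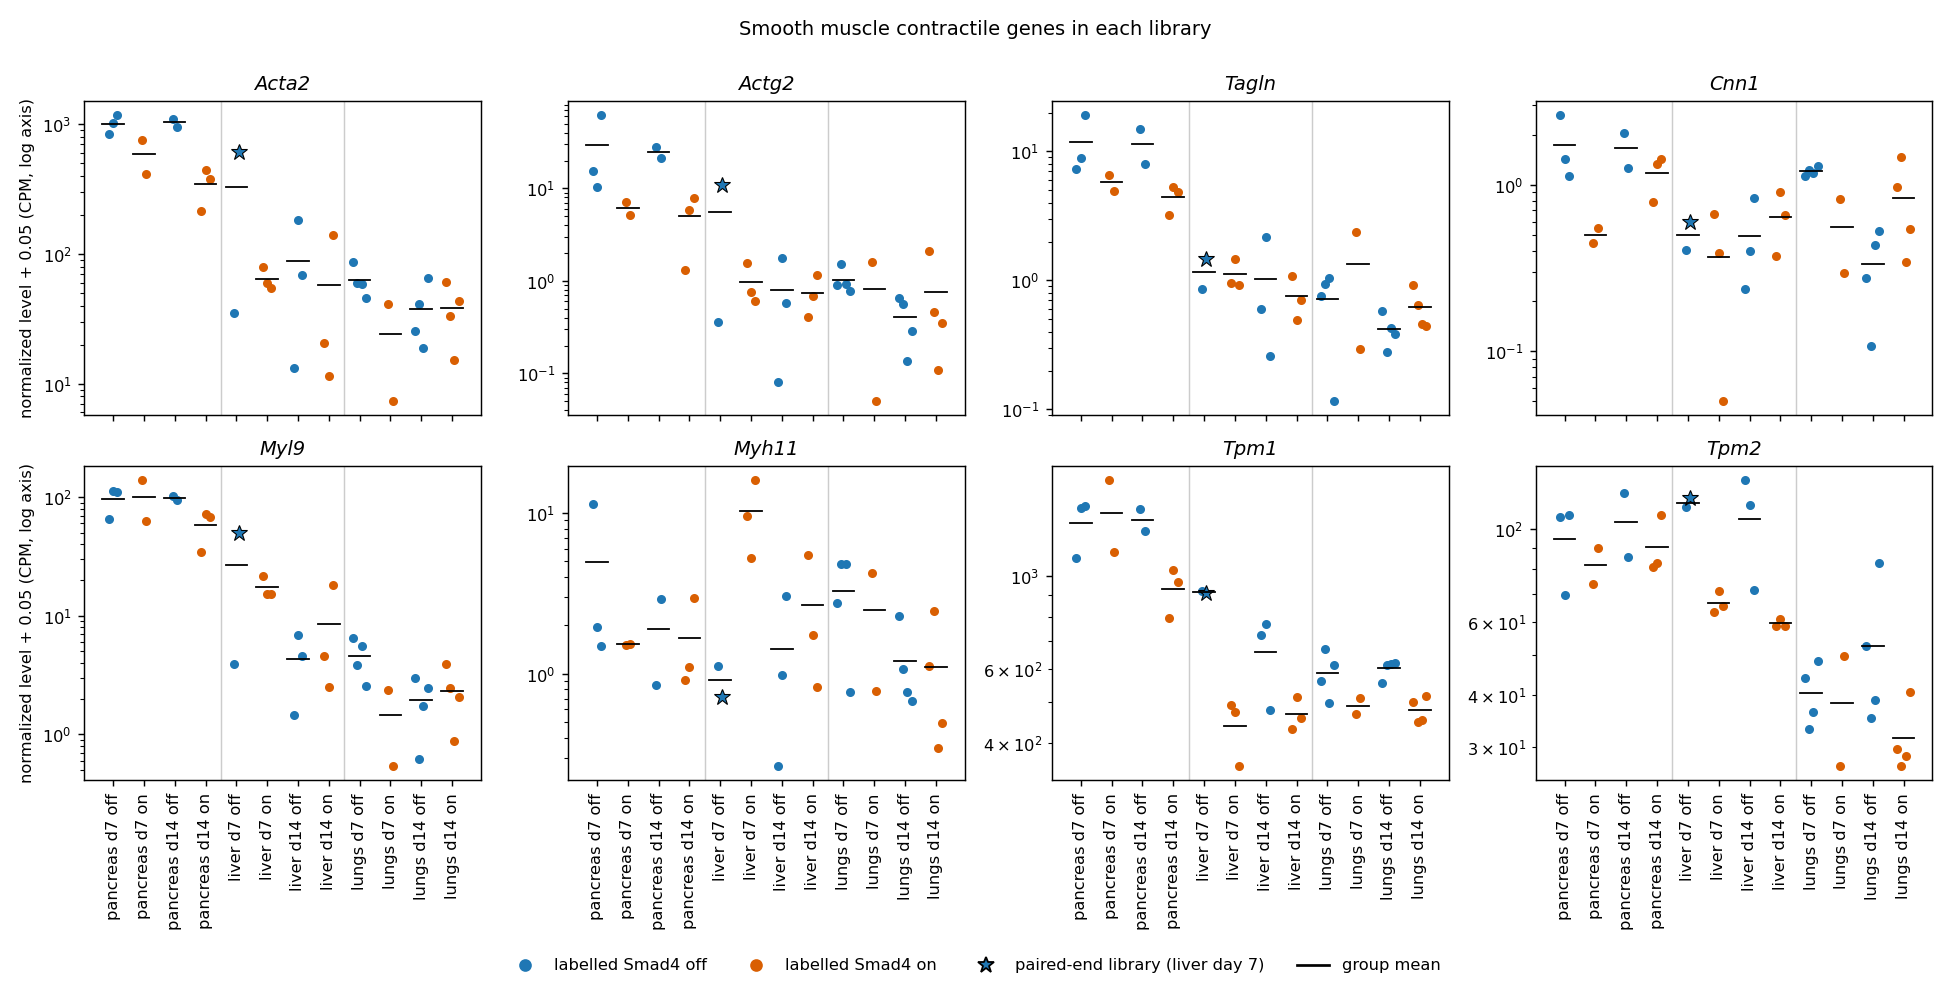
Normalized level plus 0.05 in CPM on a log axis for each of the 8 genes in each of the 35 libraries, by organ, day (d7, d14) and Smad4 label, with a line at the group mean. The paired-end liver library (star) lies close to the pancreas libraries for *Acta2*, *Actg2* and *Myl9*, and all other liver and lung libraries are below every pancreas library for *Acta2*.

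The clearest difference of these genes was between organs. With day and label held apart in a single model of the 12 groups, 5 of the 8 members were lower in liver than in pancreas in libraries labelled off, where 9.52% of all 17547 genes tested were called (fold change over 2 and Benjamini-Hochberg adjusted P under 0.05 in edgeR's quasi-likelihood test), and 7 were lower in lungs than in pancreas, where 19% were called. In libraries labelled on, 5 of 8 were lower in liver (22.6% of all genes called) and 6 of 8 in lungs (13.7% called). No member was called higher in liver or lungs than in pancreas in this edgeR model. *Myh11* in liver labelled on was called higher by DESeq2 and by edgeR with a covariate for *mt-Co3* counts. The median log2 fold change of the members was -2.25 and -2.92 for liver and lungs labelled off and -1.97 and -1.93 labelled on, against 0.06 and 0.07 and then 0.06 and 0.05 over all genes. The fibroblast genes moved beside them, with 3 and 12 of 12 called lower in liver and lungs labelled off and 12 and 11 labelled on. The count of 3 comes from a fit that includes the paired-end library, which was high in fibroblast genes, and it was not made without that library. The part of the fibroblast genes in the organ differences was not tested.

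*Acta2* ran from 213 to 1177 CPM in the 10 pancreas libraries (median 802), from 11.4 to 183 CPM in the 10 liver libraries other than the paired-end one (median 57.1) and from 7.27 to 87.1 CPM in the 14 lung libraries (median 42.1). No liver or lung library reached the lowest pancreas library, apart from the paired-end one at 616 CPM. Its log2 fold change against pancreas was -2.60 ± 0.72 (SE, adjusted P = 0.0137) for liver and -4.37 ± 0.63 (adjusted P = 7.93e-06) for lungs labelled off, and -2.93 ± 0.66 and -3.89 ± 0.76 labelled on, all by edgeR. Without the paired-end library the liver difference labelled off was -4.22 ± 0.92 and the same 5 members were called, while without the other liver library of that group 2 were. *Myl9*, the light chain, was lower as well, with 34.5 to 139 CPM in pancreas, 1.42 to 21.8 in liver without the paired-end library, where it was 49.7, and 0.489 to 6.47 in lungs. Its log2 fold changes labelled off were -3.20 ± 0.62 for liver and -5.03 ± 0.54 for lungs, with adjusted P of 0.00101 and 2.96e-07 by edgeR, and the liver value was -4.61 ± 0.75 without the paired-end library.

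The actin paralog and transgelin had the same direction at far lower levels. *Actg2* was 1.27 to 61.9 CPM in pancreas (median 9.04), 0.0308 to 1.71 CPM in liver without the paired-end library and 0 to 2.04 CPM in lungs. *Tagln* was 3.14 to 19.0 CPM in pancreas, 0.21 to 2.14 CPM in liver and 0.0659 to 2.32 CPM in lungs, so its pancreas libraries did not overlap with any other, while for *Actg2* the lowest pancreas library fell within the range of both metastatic organs. The log2 fold changes labelled off were -3.72 ± 0.95 for *Actg2* and -3.48 ± 0.58 for *Tagln* in liver, and -5.48 ± 0.83 and -4.50 ± 0.50 in lungs, all called by edgeR. Without the paired-end library the liver values were -5.81 ± 1.29 and -3.72 ± 0.77. *Actg2* against pancreas in libraries labelled on, at -2.83 ± 0.85 for liver and -2.91 ± 0.92 for lungs, was also called. The lung call ended with no filter on low counts (adjusted P = 0.0560 by edgeR) and without either of 2 libraries labelled on of day 7, pancreas replicate 1 (-2.83) or lung replicate 2 (-2.40), and the value was -6.48 without lung replicate 1.

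The tropomyosins changed less. *Tpm1* was 795 to 1694 CPM in pancreas, 351 to 920 CPM in liver and 447 to 667 CPM in lungs. Within 1 label the pancreas libraries were above all liver and lung libraries. It was called lower in lungs under both labels (-1.16 ± 0.12 off, -1.25 ± 0.13 on) and in liver labelled on (-1.39 ± 0.13), while the liver labelled off, at -0.82 ± 0.14 with an adjusted P of 0.000311 by edgeR, stayed under the fold threshold. *Tpm2* was 69.6 to 122 CPM in pancreas, 58.6 to 131 CPM in liver and 26.9 to 82.9 CPM in lungs. It was lower in lungs than in pancreas under both labels (-1.08 ± 0.18 off, -1.32 ± 0.21 on) and was not called in liver against pancreas (0.14 ± 0.21 off, -0.50 ± 0.20 on).

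The members that mark mature smooth muscle most strictly, *Cnn1* and *Myh11*, overlapped between the organs over all libraries, and within 1 label only *Cnn1* labelled off separated liver (at most 0.786 CPM) from pancreas (at least 1.07 CPM). *Cnn1* was 0.396 to 2.57 CPM in pancreas, 0 to 0.851 CPM in liver and 0.057 to 1.41 CPM in lungs, and it was called lower only in libraries labelled off (-1.91 ± 0.59 for liver, -1.46 ± 0.50 for lungs). Both calls ended without pancreas replicate 1 labelled off of day 7 (-1.68 and -1.24) or of day 14 (-1.71 and -1.26), and the liver one also without liver replicate 1 of day 7 (-1.78). Whether this differs from the libraries labelled on (-0.74 ± 0.56 and -0.18 ± 0.59) was not tested. *Myh11* was 0.796 to 11.4 CPM in pancreas, 0.216 to 16.0 CPM in liver and 0.294 to 4.77 CPM in lungs, and none of its 4 organ differences from pancreas was called by edgeR (-1.48 ± 0.76 and -0.61 ± 0.65 off, 1.71 ± 0.74 and 0.06 ± 0.75 on). For liver labelled on, opposite in sign to the other members, *Myh11* was called higher by DESeq2 (1.66 ± 0.68, adjusted P = 0.0351) and by edgeR with a covariate for *mt-Co3* counts (2.01 ± 0.74, adjusted P = 0.0293).

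**Figure D2:**
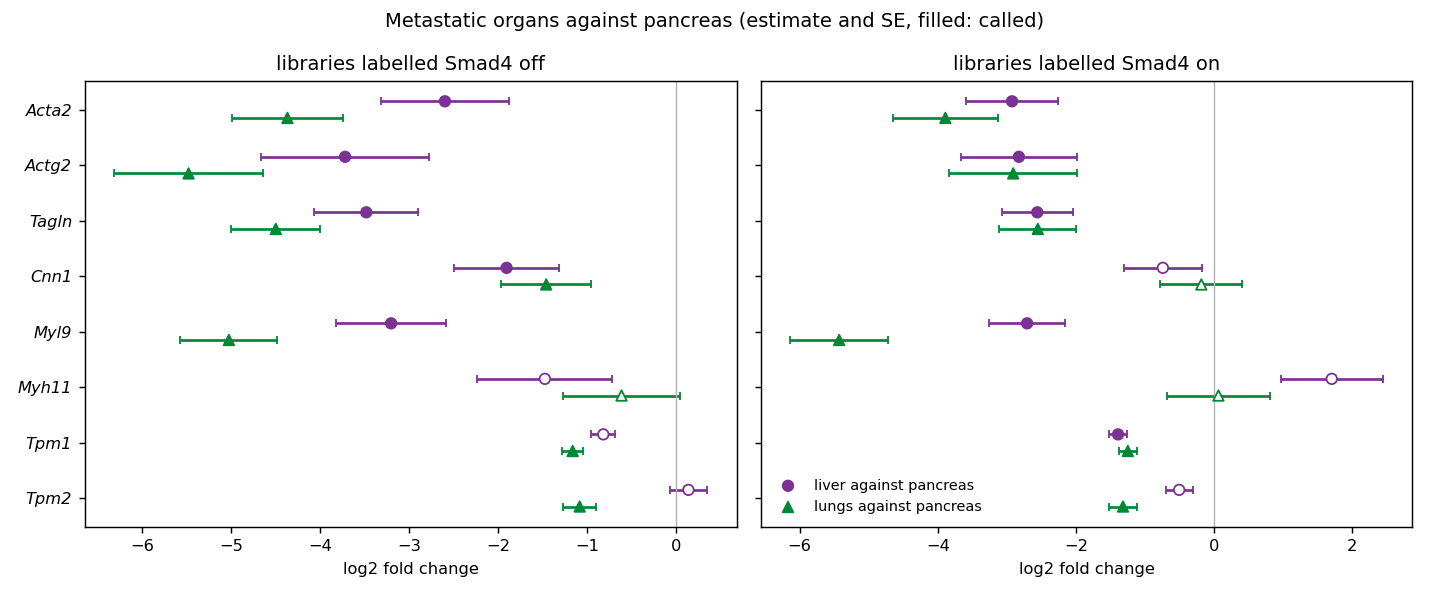
Log2 fold change with its SE of the 8 genes in liver (circles) and lungs (triangles) against pancreas, for libraries labelled Smad4 off (left) and on (right), from edgeR, with filled symbols for called genes. *Acta2*, *Actg2*, *Tagln* and *Myl9* lie at -2.55 or lower in all 4 contrasts, *Tpm1* and *Tpm2* lie nearer to 0, and *Myh11* is open throughout.

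Between the metastatic organs edgeR called 2 members in libraries labelled off, where 5.28% of all genes were called, and 1 in libraries labelled on, where 10.9% were. DESeq2 called 3 members labelled off and 1 labelled on, with 6.84% and 12.4% of all genes. *Tpm2* was higher in liver than in lungs labelled off, at 1.22 ± 0.18, and 1.20 ± 0.21 without the paired-end library. *Myl9* was higher in liver labelled off at 1.82 ± 0.52, but at 0.43 ± 0.52 with an adjusted P of 0.673 by edgeR once the paired-end library was left out. In libraries labelled on, which do not include it, *Myl9* was higher in liver at 2.72 ± 0.62 (adjusted P = 0.00249), and *Tpm2*, at 0.81 ± 0.20 (adjusted P = 0.00418), did not reach the fold threshold although its 6 liver libraries (58.6 to 70.9 CPM) were all above its 6 lung libraries (26.9 to 49.6 CPM). *Acta2* was not called by edgeR between liver and lungs under either label (1.77 ± 0.59 off, 0.97 ± 0.64 on). DESeq2 called it labelled off (1.76 ± 0.56, adjusted P = 0.0205), where edgeR gave 0.16 ± 0.62 without the paired-end library.

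The label comparison asks what changed when doxycycline was withdrawn, as far as the labels give it. Whether the labels were exchanged was not tested, and if they were, the sign of every label fold change would turn. The share of all genes without overlap between labels or organs was not computed, so a lack of overlap is given only as measured. In the pancreas on day 14, 2 of the 8 members were called, both lower in libraries labelled on, which held less *Smad4* mRNA, where 4.64% of 14234 genes tested were called (482 higher and 179 lower). *Acta2* was 1107 and 959 CPM in the 2 libraries labelled off and 213, 442 and 377 CPM in the 3 labelled on. Every library labelled on was thus far below both libraries labelled off, and the log2 fold change was -1.50 ± 0.32 (adjusted P = 0.0454 by edgeR). *Tagln* was 14.8 and 7.90 CPM labelled off and 3.14, 5.27 and 4.82 CPM labelled on, again without overlap, at -1.28 ± 0.32 (adjusted P = 0.0412). *Tpm1* passed the P threshold but not the fold threshold, at -0.46 ± 0.12 (adjusted P = 0.0464), with 1449 and 1279 CPM labelled off and 795, 1032 and 969 CPM labelled on. *Actg2* (27.7 and 21.3 CPM off, 1.27, 5.80 and 7.89 CPM on) and *Myl9* (103 and 95.5 CPM off, 34.5, 71.4 and 67.9 CPM on) also did not overlap between labels, at -2.23 ± 0.65 and -0.69 ± 0.33 with adjusted P of 0.103 and 0.247, and were not called. All 8 members had a negative estimate, with a median of -0.58 against 0.02 over all genes.

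Those 2 calls rest on few libraries and a threshold they barely pass. Leaving out 1 library at a time gave 0 to 3 called members, and the count was 0 without replicate 1 labelled off or without replicate 3 labelled on. It was 1 without replicate 2 of either label and 3 without replicate 1 labelled on. The single fit of all 12 groups, which shares one estimate of the spread, also gave 0, at -1.53 ± 0.94 for *Acta2* and -1.30 ± 0.73 for *Tagln*. The summed fibroblast genes overlapped between labels: they were 12785 and 13600.5 CPM labelled off and 9199 to 18140 CPM labelled on, with 2 of the 12 genes called higher, 1 lower and a median log2 fold change of 0.57. The summed pericyte genes were 342 and 404 CPM labelled off and 253 to 342 CPM labelled on. The P values here and below measure the spread between libraries, whose labels number the mice.

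On day 7 in the pancreas none of the 8 members was called by edgeR or DESeq2, which called 1.33% and 3.58% of 14439 genes. At an unadjusted P under 0.05 in edgeR there were 2 members, and 23.1% of all genes. *Acta2* was 841, 1021 and 1177 CPM labelled off and 763 and 414 CPM labelled on, at -0.76 ± 0.28 with an adjusted P of 0.183. The ranges did not overlap, but the nearest libraries differed by little. *Actg2* (10.2 to 61.9 CPM off, 5.14 and 7.06 CPM on), *Tagln* (7.25 to 19.0 CPM off, 4.86 and 6.54 CPM on) and *Cnn1* (1.07 to 2.57 CPM off, 0.396 and 0.497 CPM on) likewise did not overlap, at -2.24 ± 0.90, -1.02 ± 0.46 and -1.86 ± 0.55. *Myl9* was 65.5, 113 and 110 CPM off and 139 and 63.2 CPM on, at 0.09 ± 0.40, and the sign of this value depended on which library labelled on was kept. The fibroblast genes summed to more in the libraries labelled on, at 23844 and 25559 CPM against 13168 to 17253 CPM, with 3 of 12 called higher, 0 lower and a median log2 fold change of 1.11.

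**Figure D3:**
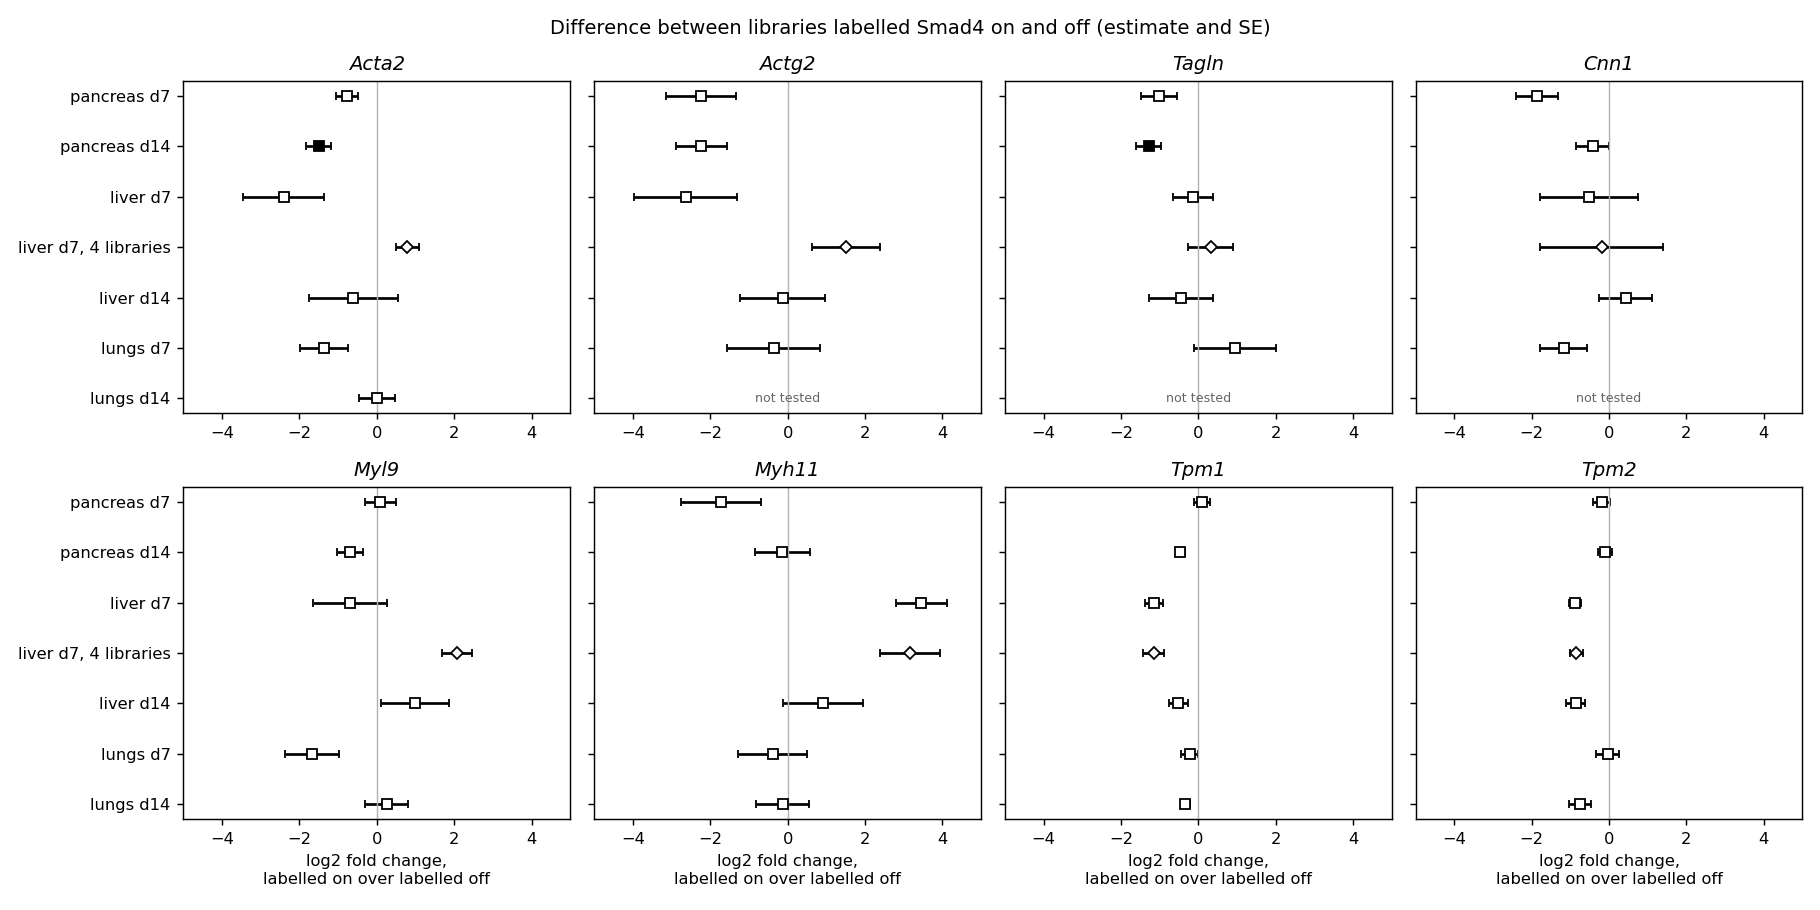
Log2 fold change with its SE (labelled on over labelled off) of each gene in the 6 organ and day comparisons, from edgeR, with filled symbols for called genes and a diamond for the liver on day 7 without the paired-end library. *Acta2* and *Tagln* in the pancreas on day 14 are the only filled symbols, and *Acta2*, *Actg2*, *Tagln* and *Myl9* change sign in the liver on day 7 when the paired-end library is left out.

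In the liver on day 7, 0 of the 8 members were called by edgeR, where 0.444% of 16007 genes were, and the paired-end library set the sign of 4 members. DESeq2 called 2 of the 8, and 17.8% of all genes. At an unadjusted P under 0.05 in edgeR there were 3 members, and 27.1% of all genes. *Acta2* was 35.2 CPM and, in the paired-end library, 616 CPM labelled off, and 79.6, 60.0 and 54.1 CPM labelled on. The other library labelled off was thus below all 3 labelled on, and the log2 fold change was -2.41 ± 1.05 with the paired-end library and 0.79 ± 0.29 without it (adjusted P = 0.218 and 0.173). *Myl9* was 3.90 and 49.7 CPM labelled off and 21.8, 15.2 and 15.3 CPM labelled on, moving from -0.70 ± 0.95 to 2.08 ± 0.38 (adjusted P = 0.702 and 0.0501). *Actg2* (0.307 and 10.8 CPM off, 0.55 to 1.52 CPM on) moved from -2.64 ± 1.34 to 1.51 ± 0.87, and *Tagln* (0.803 and 1.42 CPM off, 0.864 to 1.42 CPM on) from -0.14 ± 0.51 to 0.32 ± 0.59. With 1 library left against 3, the test without it assumes that the lone library varies like the others, so calls from that fit are not counted here. Without the other library labelled off, which leaves the paired-end one alone against the 3, *Acta2* was at -3.29, *Actg2* at -3.56 and *Myl9* at -1.55.

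*Myh11*, *Tpm1* and *Tpm2* had nearly the same values with and without that library. *Myh11*, the smooth muscle myosin heavy chain, was 1.06 and 0.668 CPM labelled off and 9.49, 5.17 and 16.0 CPM labelled on. All 3 libraries labelled on were above both others, and the value was 3.46 ± 0.65 (adjusted P = 0.0662) with the paired-end library and 3.16 ± 0.78 (adjusted P = 0.0864) without it, not called by edgeR but called by DESeq2 (3.47 ± 0.64). In the same libraries 9 pericyte genes summed to 36.9 and 456 CPM labelled off and 159, 114 and 293 CPM labelled on, and 8 endothelial genes to 261 and 263 CPM off and 100.2, 84.0 and 63.6 CPM on, and their part in the *Myh11* values was not tested. *Tpm1* was 920 and 913 CPM labelled off against 490, 472 and 351 CPM labelled on, at -1.14 ± 0.24 (adjusted P = 0.0735) and at -1.15 ± 0.27 without the paired-end library, and was called by DESeq2. *Tpm2* was 113 and 118 CPM labelled off against 63.2, 70.9 and 65.3 CPM labelled on, at -0.88 ± 0.15 (adjusted P = 0.0607) and -0.85 ± 0.17. For both tropomyosins the paired-end library and its partner labelled off were nearly equal, and no library labelled on reached them. Within the libraries with *mt-Co3* counts (1 on, 1 off) and without them (2 on, 1 off) the log2 difference of *Myh11* was 3.82 and 2.27, that of *Tpm1* -1.38 and -0.93 and that of *Tpm2* -0.85 and -0.75, while *Acta2* was at -3.50 and 0.96.

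The tropomyosins leaned the same way in most groups. *Tpm2* had a negative estimate in all 6 label comparisons, from -0.88 to -0.04, and *Tpm1* in 5 of 6, the pancreas on day 7 being at 0.10 ± 0.21. In the liver on day 14 *Tpm2* was 131, 114 and 71.5 CPM labelled off and 58.6, 60.7 and 58.6 CPM labelled on. The ranges did not overlap, and the value was -0.86 ± 0.24 with an adjusted P of 0.372. *Tpm1* there was 724, 768 and 478 CPM off and 431, 514 and 459 CPM on, at -0.52 ± 0.24. In the lungs on day 14 *Tpm1* was 554, 613, 617 and 620 CPM labelled off and 500.3, 447, 454 and 518 CPM labelled on, again without overlap, at -0.33 ± 0.12 (adjusted P = 0.369), and *Tpm2* was 35.1 to 82.9 CPM off and 26.9 to 40.6 CPM on, at -0.75 ± 0.28 (adjusted P = 0.411). Within the sets with and without *mt-Co3* counts, 8 of 8 differences of *Tpm1* and 7 of 8 of *Tpm2* in liver and lungs were negative. These differences reuse the same libraries, some set 1 library against 1, and the share of all genes with such signs was not computed. Apart from *Tpm1* in the pancreas on day 14, which missed only the fold threshold, no label difference of either gene passed the correction in edgeR, so the direction is given as measured and not as a change.

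**Figure D4:**
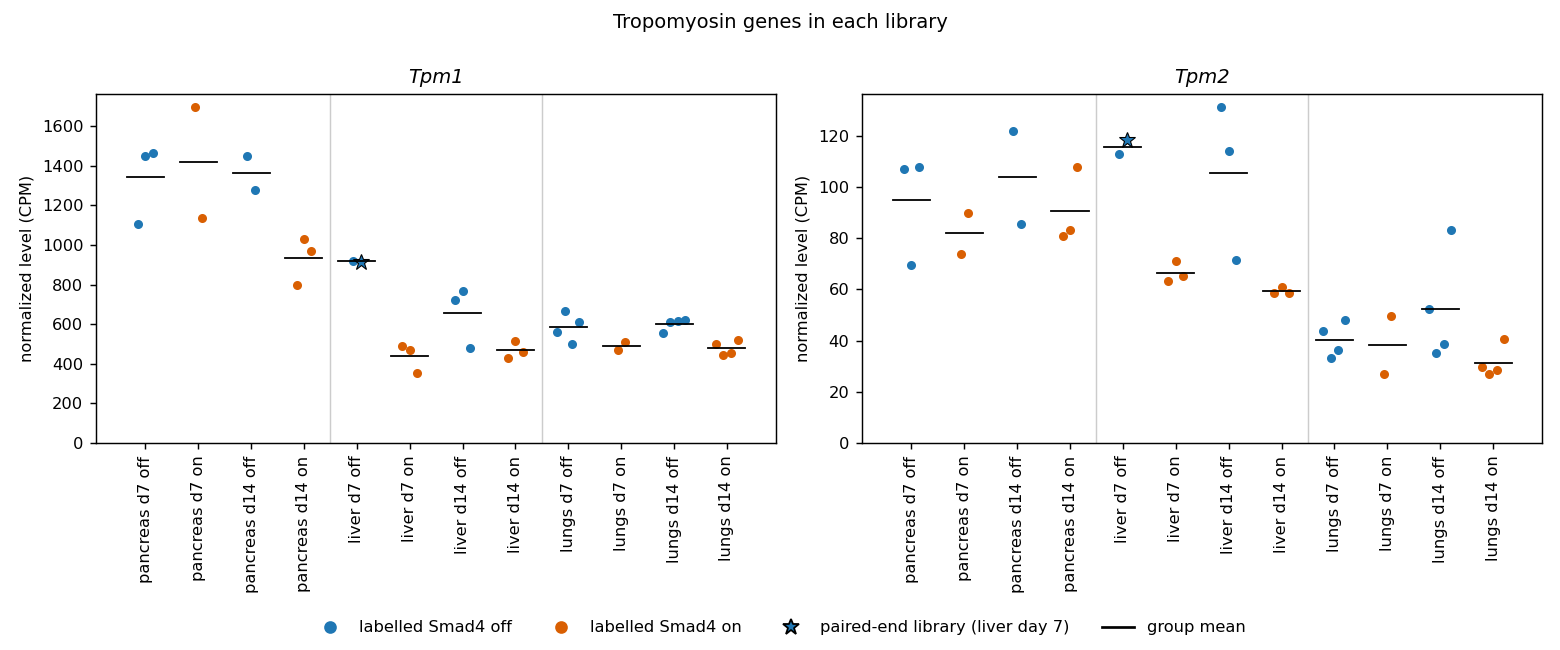
Normalized level in CPM, on a linear axis from 0, of *Tpm1* (left) and *Tpm2* (right) in each library by organ, day and Smad4 label, with group means as lines. *Tpm1* labelled on is below labelled off without overlap in the pancreas on day 14, the liver on day 7 and the lungs on day 14, and *Tpm2* in the liver on both days.

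The other label comparisons of metastases held no called member. In the lungs on day 7, 0 of 8 members were called by edgeR and 0 by DESeq2, with 0% and 0.658% of all genes called. At an unadjusted P under 0.05 in edgeR there was 1 member, and 5.22% of all genes. *Acta2* was 87.1, 59.9, 58.2 and 46.0 CPM labelled off and 40.9 and 7.27 CPM labelled on, at -1.37 ± 0.62, *Myl9* was 2.50 to 6.47 CPM off and 2.32 and 0.489 CPM on, at -1.68 ± 0.70, and *Cnn1* was 1.09 to 1.25 CPM off and 0.775 and 0.244 CPM on, at -1.17 ± 0.62. Each of the 3 had its libraries labelled on below all libraries labelled off. How many of all genes separate in this way was not computed. The summed fibroblast genes were 495 to 2080 CPM off and 181 and 643 CPM on. Their ranges overlapped, and the library at 181 CPM was also the one with *Acta2* at 7.27 CPM. In the libraries labelled on, *Myl9* rested on 30 and 8 counts and *Cnn1* on 10 and 4. The sizes rest on 2 libraries labelled on: without replicate 1 of these *Acta2* was at -3.04, *Myl9* at -3.14 and *Cnn1* at -2.16, and without replicate 2 they were at -0.61, -0.97 and -0.58. In the liver on day 14, 0 of 8 were called by edgeR and 0 by DESeq2, with 0% and 2.22% of all genes called. At an unadjusted P under 0.05 in edgeR there was 1 member, and 9.68% of all genes. *Acta2* there ran from 13.2 to 183 CPM off and from 11.4 to 139 CPM on. In the lungs on day 14, *Actg2*, *Tagln* and *Cnn1* were too low to be tested. Of the 5 tested members 0 were called by edgeR and 0 by DESeq2, against 0.0271% and 1.34% of all genes. At an unadjusted P under 0.05 in edgeR there were 2 members, and 10.1% of all genes. *Acta2* there was at 0.01 ± 0.47. Once mouse number was added as a block, 109 genes in all were called there against 4 without it, and 0 members either way, with *Tpm2* at -0.68 ± 0.14 (adjusted P = 0.0515).

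No member passed edgeR's test of a difference in response between liver and lungs. On day 7 the value by edgeR was 3.91 ± 1.27 for *Myh11* (adjusted P = 0.117), -0.86 ± 0.30 for *Tpm1* (0.138) and -0.78 ± 0.35 for *Tpm2* (0.239). With edgeR 0 of 8 members and 1.86% of all genes were called, and with DESeq2 1 member, *Myh11*, and 11.5% of all genes. At an unadjusted P under 0.05 in edgeR there were 2 members, and 21.1% of all genes. On day 14, 0 of 8 members and 0% of all genes were called (0 at an unadjusted P under 0.05 and 0 by DESeq2). Between days 14 and 7, averaged over the organs, 0 members were called in libraries labelled off, where 0.12% of all genes were. In libraries labelled on 0 members and 0% of all genes were called, and DESeq2 called 0 members under either label. At an unadjusted P under 0.05 in edgeR there were 2 members and 12.8% of all genes labelled off, and 0 members and 7.72% labelled on. The largest day estimates were those of *Actg2* and *Myl9* labelled off, at -1.56 ± 0.68 and -1.32 ± 0.45, and they were -0.17 ± 0.70 and -0.38 ± 0.42 without the paired-end library.

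The regulators of these genes were measured beside them. *Myocd*, which encodes myocardin, was at 0 counts in 23 of 35 libraries and at most 0.118 CPM, while *Srf* was 43.9 to 149 CPM, *Mkl1* 23.9 to 59.9 CPM and *Mkl2* 25.4 to 57.0 CPM. None of the 3 tested genes of this family was called in any of the 16 comparisons. *Srf* in the pancreas on day 14, where *Acta2* and *Tagln* were lower, was at -0.69 ± 0.09 with an adjusted P of 0.00352 by edgeR, under the fold threshold, *Mkl1* was at -0.48 ± 0.14 (0.0612) and *Mkl2* at -0.05 ± 0.11.

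Of 20 other genes named for smooth muscle, 15 were tested in the pancreas on day 14. Of these, 1 was called higher and 2 lower in libraries labelled on, against 3.39% and 1.26% of all genes tested. Those lower were *Kcnmb1*, a subunit of the smooth muscle potassium channel (-1.50, adjusted P = 0.0107), and *Jph2*, a junctional protein of muscle (-1.12, adjusted P = 0.0210), and *Synm*, an intermediate filament protein, was higher (1.19, adjusted P = 0.0239). In the other 5 label comparisons 0 of the 12 to 17 tested were called. Against pancreas in libraries labelled off, 6 of 19 were called lower and 0 higher in liver, beside 3.97% and 5.56% of all genes. In lungs 6 were lower and 2 higher, beside 7.32% and 11.7% of all genes. The lower ones were led by *Kcnmb1* (-4.16 and -7.13) and, in the lungs, *Nexn* (-2.68), an actin-binding protein. The organ differences of this list labelled on are not given here. The 2 higher in lungs, named after their values were seen, were *Synm* (1.96) and *Ppp1r14a* (2.28), so the wider list did not share 1 direction. In the pancreas on day 14, 3 of 24 tested general actomyosin genes, which most cells express, were lower (*Zyx* -1.12, *Cnn2* -1.10, *Myh10* -1.04) and 0 higher. The share of all genes called lower there was 1.26%. The median of the 24 was -0.52 against 0.02 over all genes, and 0 of them were called in any other label comparison. Of the 14 striated muscle genes, 2 to 5 were tested in the label comparisons and 0 called, and their summed level was 2.06 to 14.0 CPM.

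Over the 35 libraries, *Acta2*, *Myl9*, *Actg2* and *Tagln* followed the fibroblast genes closely. Pearson's r of log2(CPM + 0.5) with the summed fibroblast genes was 0.95 for *Acta2*, 0.91 for *Myl9*, 0.86 for *Actg2*, 0.82 for *Tagln*, 0.77 for *Tpm1*, 0.58 for *Tpm2*, 0.51 for *Cnn1* and 0.03 for *Myh11*. After the mean of each of the 12 groups was subtracted, r stayed at 0.90 for *Acta2*, 0.80 for *Myl9* and 0.71 for *Actg2*, and it was 0.38 for *Tagln*, 0.31 for *Cnn1* and at most 0.07 for *Tpm1*, *Tpm2* and *Myh11*. Without the paired-end library the values within groups were 0.88 for *Acta2*, 0.68 for *Myl9* and 0.54 for *Actg2*. These correlations describe 35 libraries that share organs and sorts, and whether fewer fibroblasts or less RNA per cell lies behind a low level cannot be told apart in bulk libraries.

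**Figure D5:**
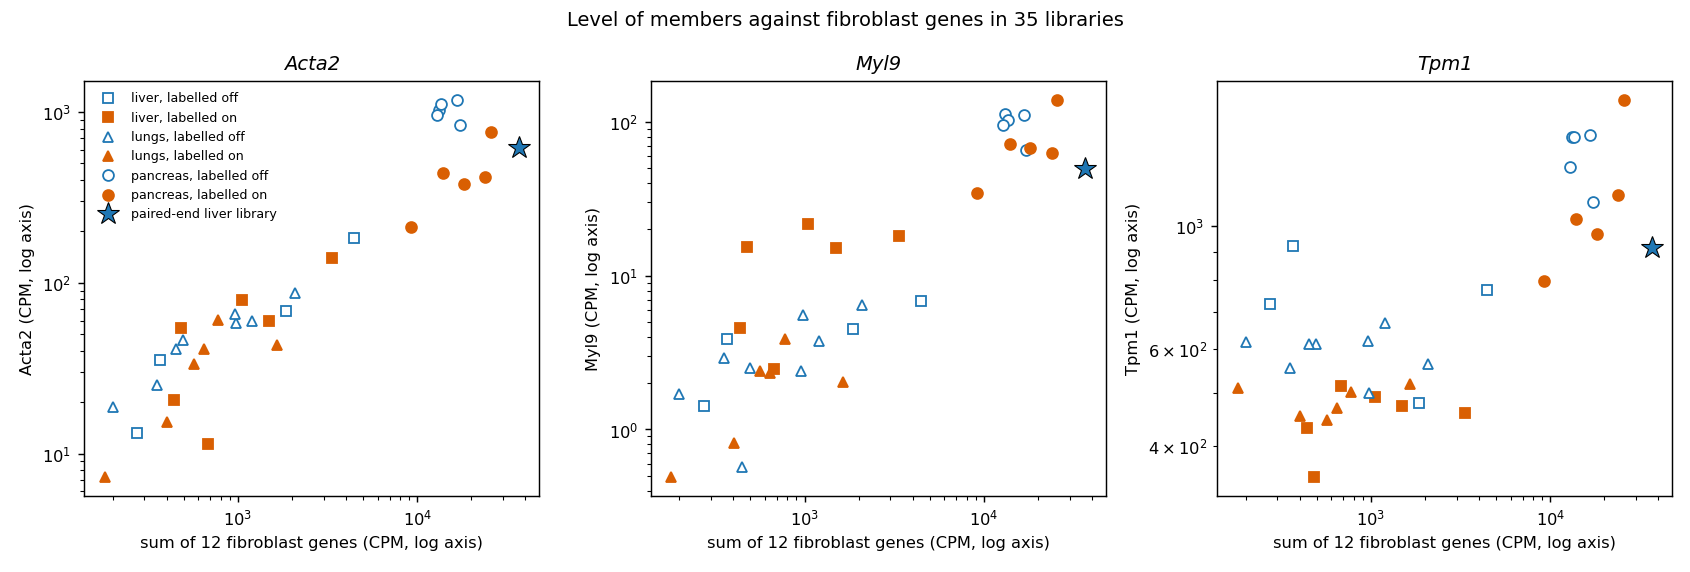
Level of *Acta2*, *Myl9* and *Tpm1* against the summed level of 12 fibroblast genes, both in CPM on log axes, in the 35 libraries, by organ (symbol shape) and Smad4 label (color and fill), with the paired-end liver library as a star. *Acta2* rises with the fibroblast genes over all libraries (r = 0.95), and the 5 pancreas libraries labelled on lie under the 5 labelled off, while r within groups is 0.07 for *Tpm1*.

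In the pancreas, *Acta2* was lower relative to the fibroblast genes in libraries labelled on. Expressed as a percent of the summed fibroblast genes, a ratio chosen after the values were seen and therefore given with no test, *Acta2* was 4.88 to 8.14% in the 5 libraries labelled off and 1.73 to 3.18% in the 5 labelled on. *Tagln* was 0.0420 to 0.114% against 0.0204 to 0.0379%, and *Actg2* 0.0774 to 0.372% against 0.0138 to 0.0435%, and the labels did not overlap with both days pooled. These same genes also did not overlap between labels in CPM on either day. On day 7 the fibroblast sum itself was higher in the libraries labelled on, which lowers the ratio. The other 5 members overlapped, and how many of all genes would separate on this scale was not computed. In liver and lungs every member overlapped between labels on this scale, with *Acta2* at 1.68 to 9.57% off and 1.68 to 11.2% on in the liver, and 4.19 to 9.33% off and 2.63 to 7.81% on in the lungs.

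Among themselves the members fell into a correlated group of 4 genes and 4 others. Over the 35 libraries *Acta2* correlated with *Myl9* at 0.93, with *Actg2* at 0.92 and with *Tagln* at 0.87, and within groups at 0.88, 0.75 and 0.48. *Tpm1* correlated with *Acta2* at 0.82 over all libraries and at 0.10 within groups, so the correlation was mostly between groups. *Myh11* correlated with no other member above 0.23 over all libraries, and within groups it was at -0.52 with *Tpm1* and -0.37 with *Tpm2*. The median over the 28 pairs was 0.55 over all libraries and 0.13 within groups.

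The genes most like each member were named by the highest r over the 35 libraries among 17547 genes. For *Acta2* they were *Loxl1*, *Col1a1*, *Mcam*, *Rcn3* and *Pdgfrl* (0.97 to 0.96), of which *Loxl1* crosslinks elastic fibers and *Col1a1* is a chain of collagen I. For *Myl9* they were *Rnf150*, *Myh10*, *Postn*, *Islr* and *Ccdc80* (0.96 to 0.95), for *Actg2* *Jph2*, *Vgll3*, *Map1a*, *Nuak1* and *BC034090* (0.91 to 0.90), and for *Tagln* *AI115009*, *Mcam*, *Fcrls*, *Reg2* and *Spink1* (0.92 to 0.90). Within groups, *Acta2* was nearest to *Emilin1* (0.95), *Loxl1*, *Rcn3*, *Cd248* and *Col1a1*, and *Myl9* to *Rab3il1* (0.92). *Tpm1* had *Sgcb* among its nearest genes over all libraries (0.94) and *Anxa5* within groups (0.77), and *Tpm2* had *Car9*, carbonic anhydrase 9 (0.82), and *Cdkn1c* (0.69). The nearest gene to *Myh11* was *Urb1* over all libraries (0.80) and *Emcn*, which marks endothelium, within groups (0.84), followed by *Mkl2* (0.81). *Cnn1* reached no more than 0.67 over all libraries, with *Adgrd1*.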

How the data were processed

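RNA was measured by poly(A) TruSeq stranded libraries of FACS-sorted mKate2-positive tumor cells, read as 75-base single ends except for 1 paired-end library. The authors trimmed reads with Trimmomatic (0.36), aligned them to GRCm38 (mm10) with STAR (2.5.3a) and counted them per gene with featureCounts (1.6.3), the tools and versions being those of the submitters' processing notes, and deposited raw counts that are not normalized. The strand and multi-mapping settings are not given in the sources used here. All 35 columns were matched to libraries by name, and groups came from the labels.

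Counts were scaled by trimmed mean of M values (TMM) to CPM with edgeR (4.0.16) in R (4.3.3), over all 35 libraries for levels. Each label comparison was fitted on its own libraries, and organ and day comparisons on all 12 groups, with glmQLFit and glmQLFTest after filterByExpr, and P values were adjusted by Benjamini-Hochberg over all genes tested. Called means a fold change over 2 and adjusted P under 0.05, the thresholds of the study's methods, whose tool, DESeq2 (1.42.0), was run as an alternative. For edgeR, SE is the absolute log2 fold change divided by the square root of the F statistic of the test. For DESeq2 it is the standard error of the log2 fold change that the tool gives. Other alternatives were DESeq2 size factors, no filter on low counts, no fold threshold, a covariate for *mt-Co3* counts, a single fit of 12 groups, a block for the mouse number and leaving out each library. The scripts were tested on simulated counts. Totals of 11885461 to 43571007 counts per library set the precision, and floors cover counting error only.

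The 8 members and the gene lists were chosen with earlier results of these data known. Named genes are the 8 members, up to 3 called genes per list and comparison with the lowest adjusted P, the SRF and myocardin family, and genes among the 5 with the highest Pearson r to each member. In the lungs on day 14 libraries of the same mouse number deviated together from their group means (r = 0.47 to 0.59 over the 4 pairs), but libraries numbered 1 with 2 and 3 with 4 correlated as much (up to 0.63), a split that matches the presence of *mt-Co3* counts, so the deviations do not show pairing by mouse, and the block is given as an alternative.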

Additional observations from a re-analysis of the deposited data

Results flagged for a closer look

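*Tpm1* in the lungs on day 14 was 554 CPM in replicate 1 labelled off, while the other 3 libraries of that group lay between 613 and 620 CPM, a gap that passed Dixon's 95% critical value. It was the only one of 24 combinations of gene and group tested that did, and chance marks about 1 in 20. Only groups of 4 libraries were tested, all of them in the lungs.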

How the results depend on the processing

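Of 373 alternatives to the member results other than leaving out a library, 346 kept direction and side of the threshold, 7 lost and 16 gained a call, and 4 turned sign. The number of called members was 1 for the day 7 pancreas with no filter on low counts. In the liver on day 7 it was 2 with DESeq2, 2 with no filter, 1 with the *mt-Co3* covariate and 2 in the single fit of 12 groups. There DESeq2 called 17.8% of all genes and the single fit 17.6%. The number also changed on leaving out the library labelled off other than the paired-end one, a fit with 1 library in that group. In the pancreas on day 14 it was 1 with no filter, 0 in the single fit and 0 to 3 on leaving out a library. It was 2 to 5 for liver against pancreas labelled off on leaving out a library, 1 with no filter and 1 to 3 on leaving out a library for liver against lungs labelled off, 2 with no fold threshold and 1 to 2 on leaving out a library for liver against lungs labelled on, 0 to 1 for day 14 against day 7 labelled off, and 1 with DESeq2 and 0 to 1 on leaving out a library for the difference in response on day 7. The median correlation between members was 0.54 over all libraries and 0.21 within groups with a pseudocount of 0.05, and 0.56 and 0.18 without the paired-end library. Apart from leaving out that library, the cause was not tested.

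On leaving out each library, *Myl9* in pancreas libraries of day 7 ran from -0.58 to 0.55. For liver libraries of day 7, *Acta2* ran from -3.29 to 0.79, *Actg2* from -3.56 to 1.51, *Tagln* from -0.45 to 0.32, *Cnn1* from -1.42 to 0.0369 and *Myl9* from -1.55 to 2.08, and *Myl9* was at 0.33 with the *mt-Co3* covariate. Against pancreas, *Myh11* in lungs ran from -0.95 to 0.16 labelled off and from -0.83 to 0.44 labelled on, and *Cnn1* in lungs labelled on from -0.72 to 0.12.

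The mouse number as a replicate block was fitted although the deviations did not show that numbers pair the libraries. In the pancreas on day 14 it gave 0 called members, with *Acta2* at -1.67 (adjusted P = 0.0916 by edgeR) and *Tagln* at -1.32 (adjusted P = 0.155), and in the liver on day 7 *Tagln* was at 0.0162, *Cnn1* at 0.0161 and *Myl9* at 0.31. Over all genes the block gave 0 calls against 192 for the day 7 pancreas and 0 against 71 for the day 7 liver. It changed no other member's call. *Actg2*, *Tagln* and *Cnn1* are limited by depth, with under 10 counts in 9 or 10 of the 35 libraries.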
